A study of Mus musculus with 4 samples.

Results

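mmu-miR-26a-5p and mmu-miR-26b-5p (miR-26a-5p and miR-26b-5p below) are the guide strands of the mouse miR-26 family, and both were measured in RNA of the exosome fraction that 3T3-L1 cells released into their medium. They were taken by exact name among the non-control entries of all 4 arrays, which gave 2 miRNAs of the 1881 on the array. 3T3-L1 is a mouse line of fibroblast-like preadipocytes that turns into fat-storing adipocytes under hormones. D0 is the end of culture in growth medium. D4, D12 and D16 are days after the shift to a differentiation medium with 1-methyl-3-isobutylxanthine, dexamethasone and insulin, which was later replaced by medium with insulin alone. Serum depleted of exosomes was used on every day. Particles were pelleted by ultracentrifugation, and equal protein amounts from independent experiments were mixed, 2 according to the methods and 3 according to the sample names. Each day was then read on 1 single-colour (Cy3) array, so differences between days cannot be set against replicates and were not tested.

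A guide strand is the arm of a miRNA hairpin that is kept in Argonaute and pairs with messenger RNAs, mainly through its seed at bases 2 to 8. The miR-26 genes lie within genes of the small CTD phosphatases, which like miR-26 itself act on the retinoblastoma pathway of cell cycle exit. Ezh2, a chromatin methyltransferase, is a known target of the family. In fat cells miR-26 has been described both as promoting differentiation of human adipocytes and as restraining adipogenesis in mice.

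The mature sequences, taken from RefSeq, show how alike the members are, with the seed in capitals and the rest in lower case.
miR-26a-5p: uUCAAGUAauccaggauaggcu
miR-26b-5p: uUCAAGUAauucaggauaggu
The seed UCAAGUA is identical, and among the 1608 array names that matched a RefSeq mature sequence no other miRNA carries it. Read base by base from position 1 at the 5′ end, with the base of miR-26a-5p first, the 2 differences over 21 compared positions are C11U and C21U. miR-26a-5p is 22 bases long and miR-26b-5p 21. The next closest sequences on the array were 8 edits away from either member, against 2 edits between the members. miR-26a-5p is made from 2 genes on the plus strand of GRCm38.p6, Mir26a-1 at chr9:119031811-119031832 within Ctdspl and Mir26a-2 at chr10:126995543-126995564 within Ctdsp2. miR-26b-5p is made from 1 gene, Mir26b at chr1:74394324-74394344 within Ctdsp1, also on the plus strand. The array reads the mature strand only, so the contributions of Mir26a-1 and Mir26a-2 cannot be told apart.

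The passenger strands of the same hairpins are shown, seeds again in capitals, because they come from the same transcripts as the guides.
miR-26a-1-3p: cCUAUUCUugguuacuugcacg
miR-26a-2-3p: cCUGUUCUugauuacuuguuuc
miR-26b-3p: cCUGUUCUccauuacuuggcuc
None of the 3 passengers was detected on any of the 4 days, while both guides were detected on all 4. Of all 1881 miRNAs on the array, only 467 were detected on at least 1 day and 283 on all 4, so most were never detected. Detection here is the call of the software, that at least 1 probe of the miRNA has a signal above 3 times its error.

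Each array held 56430 spots, with 30 spots for each member divided equally between 2 probes, and no spot was saturated. Between 329 (D0) and 426 (D4) miRNAs were detected on an array. The D0 array was the dimmest and the noisiest. Replicate spots there varied by a median of 21.1% (coefficient of variation), against 7.19% to 8.07% on the later days. The spike-in control RNAs, averaged together, were 1.27-fold to 1.82-fold brighter on the later days. Values are total gene signals in arbitrary intensity units without scaling between arrays, and the error after ± is the one the software derives from the spots of the same array. The effective spot size, a factor in each total, was the default of the software, 0.6, at D0 and D16. At D4 and D12 the software estimated it, at 0.780 and 0.760, which makes totals of these days larger beside the other 2. Fewer particles and less RNA per particle cannot be told apart in such a fraction.

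By total gene signal both miR-26 guides were lowest at D0, many times higher at D4, highest at D12 and lower again at D16. At D0 the signal of miR-26a-5p was 4.52 ± 0.941, and it came to 64.5 ± 5.11 at D4, to 85.5 ± 6.62 at D12 and to 61.2 ± 4.72 at D16. At D0 that of miR-26b-5p was 2.73 ± 0.867, and it came to 33.6 ± 3.00 at D4, to 61.6 ± 4.78 at D12 and to 44.5 ± 3.51 at D16. D0 was far below the other days for both members, and the error ranges of D0 do not meet those of any later day. Mean spot signals of both probes leave the effective spot size out. By them miR-26a-5p stood at 7.81 (D4), 10.6 (D12) and 9.62 (D16) times D0, and miR-26b-5p at 6.44, 12.1 and 11.1. For miR-26a-5p D16 was thus above D4 by this measure and below it by total gene signal. Among the detected miRNAs of an array, ordered from the brightest, miR-26a-5p moved from place 255 of 329 at D0 to 96 of 426, 71 of 406 and 68 of 380 on the later days. miR-26b-5p moved from place 313 at D0 to 135, 87 and 88. As a share of all detected signal, which a common factor on an array leaves unchanged, miR-26a-5p made up 0.0356% on D0, then 0.165% (D4), 0.276% (D12) and 0.280% (D16). The share of miR-26b-5p was 0.0214%, 0.0859%, 0.199% and 0.203% in the same order. By share, then, D12 and D16 lay close together for both members, above D4 and D0.

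The D0 values lie close to the background of the array, and the ratios to D0 inherit this. At D0 the total of each member came from 1 of its 2 probes, since the other fell short of 3 errors, whereas on each later day it came from both. For miR-26a-5p, probe A_54_P4384 gave 4.52 ± 0.941 at D0, 4.81 times its error, and probe A_54_P2481 gave 1.84 ± 0.841, 2.19 times its error. For miR-26b-5p, probe A_54_P2484 gave 2.73 ± 0.867 at D0, 3.14 times its error, and probe A_54_P2483 gave 1.29 ± 0.829, 1.56 times its error. Detection of miR-26b-5p at D0 therefore rested on a single probe that barely passed. Of the 30 spots per member, 9 were well above background at D0 for miR-26a-5p and 2 for miR-26b-5p, and all 30 were on every later day. Single spots at D0 still stood apart from blank ones for the 2 detected probes, and less so for the others. The highest of 400 negative-control spots, outliers left out, reached 7.29 at D0. This was exceeded by 15 of 15 spots of A_54_P4384, 9 of A_54_P2481, 13 of A_54_P2484 and 4 of A_54_P2483. The spots of the members were also uneven across the D0 array. The mean of those on the right side was 1.16 to 1.96 times that of those on the left for the 4 probes at D0, against 0.93 to 1.06 times on the later days.

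**Figure D1:**
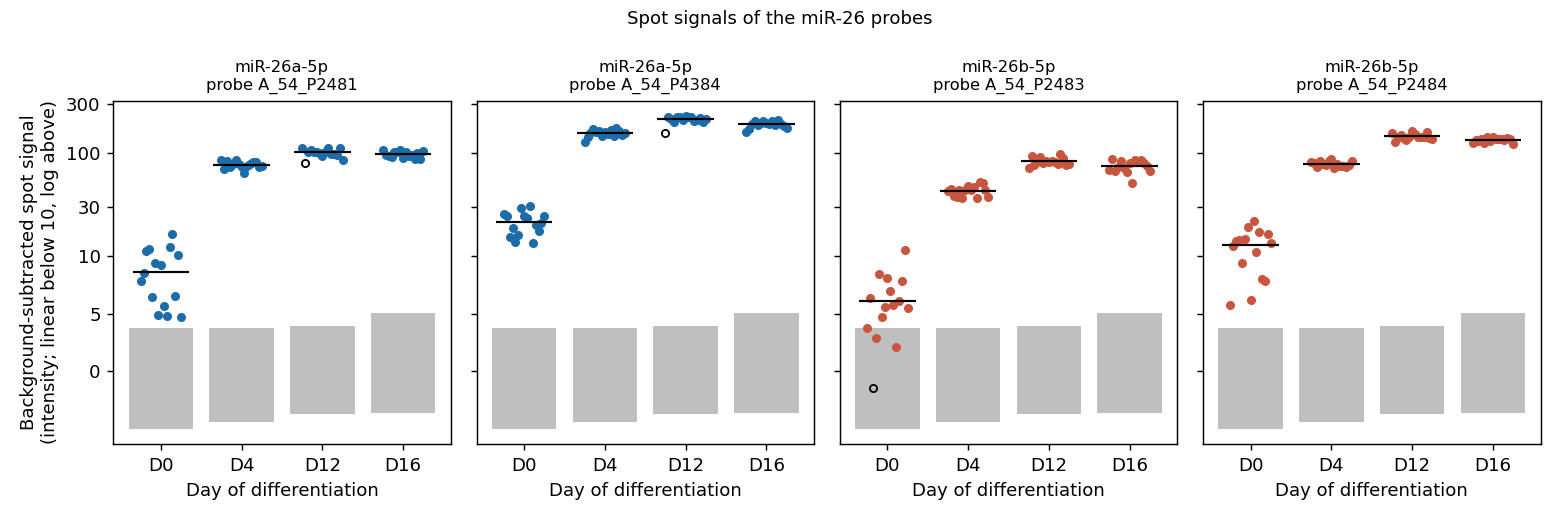
Background-subtracted signal of each of the 15 spots of the 4 miR-26 probes by day (intensity; the axis is linear below 10 and logarithmic above). Filled points are spots, open points are spots the software marked as outliers, black lines are means without outliers, and grey boxes span the 5th to 95th percentile of negative-control spots; D0 spots lie near the boxes, and those of every later day lie clear of them.

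The ratios to D0 were above 2, the threshold used here, for both members on all 3 later days, and by total gene signal they stood near the top of the array. At D4 the ratio was 14.3 ± 3.18 for miR-26a-5p and 12.3 ± 4.08 for miR-26b-5p. Of the 317 miRNAs detected at both D0 and D4, 62.1% were above 2, so the crossing of this threshold by 2 of 2 members is near what most miRNAs of the array did. The median ratio was 2.47, and the members ranked 5 and 6 from the highest. At D12 the ratio was 18.9 ± 4.20 for miR-26a-5p and 22.6 ± 7.40 for miR-26b-5p. Here 47.8% of 297 miRNAs were above 2, with a median of 1.91, and the members ranked 5 and 4. Only miR-451a, miR-99a-5p and miR-322-5p stood higher than both at D12. At D16 the ratio was 13.5 ± 3.00 for miR-26a-5p and 16.3 ± 5.35 for miR-26b-5p, with 31.1% of 289 miRNAs above 2, a median of 1.32 and ranks 5 and 4. On the log2 scale the ratios of miR-26a-5p exceeded the array medians by 2.53 (D4), 3.31 (D12) and 3.36 (D16), and those of miR-26b-5p by 2.32, 3.56 and 3.63.

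**Figure D2:**
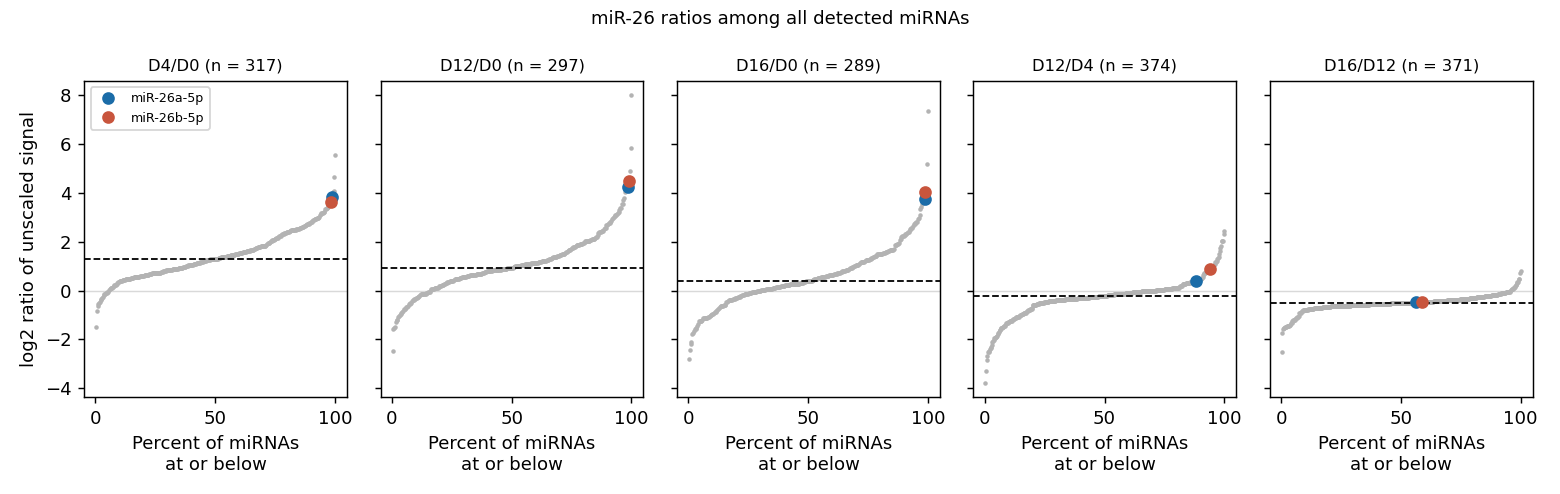
Log2 ratio of unscaled signals (vertical) for all miRNAs detected on both days of a comparison, against the percent of them at or below that ratio (horizontal). Grey points are miRNAs, coloured points are miR-26a-5p and miR-26b-5p, and dashed lines are medians; the members lie at the upper end in the 3 comparisons with D0, above the median at D12/D4, and at the median at D16/D12.

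The size of the ratios to D0 depended on the processing, but their direction did not under the settings tried. Over 10 other settings, 60 recomputed ratios to D0 all lay above 1, from 1.71 to 33.2, and 59 of them lay above 2. The exception was miR-26b-5p at D4, 1.71 under the normexp correction, where an offset of 50 is added to every signal and compresses ratios of dim spots. Dividing each array by its 75th percentile lowered the D12/D0 ratio to 5.75 for miR-26a-5p and 6.87 for miR-26b-5p. Under that scaling 10.1% of the miRNAs were above 2 and 38.4% below 0.5, against 47.8% and 3.37% unscaled, while ranks cannot change under a common factor. With the probe detected on both days alone, the D12/D0 ratio was 12.9 for miR-26a-5p, rank 8, and 14.4 for miR-26b-5p, rank 5. Ranks at D4 depended more on the setting. That of miR-26a-5p went from 5 to 8 with these probes and to 44 of 317 with normexp, and that of miR-26b-5p from 6 to 16 and to 76. The probes that were not detected at D0 were also set to their detection limit there, 3 times their error, or 2.52 for A_54_P2481 and 2.49 for A_54_P2483. D12 was 10.9-fold above this limit for A_54_P2481 and 9.01-fold above it for A_54_P2483. The limit is not an upper bound on the D0 signal. From the measured D0 signals the D12/D0 ratios were 14.9 ± 7.01 and 17.3 ± 11.3, with wide technical errors.

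**Figure D3:**
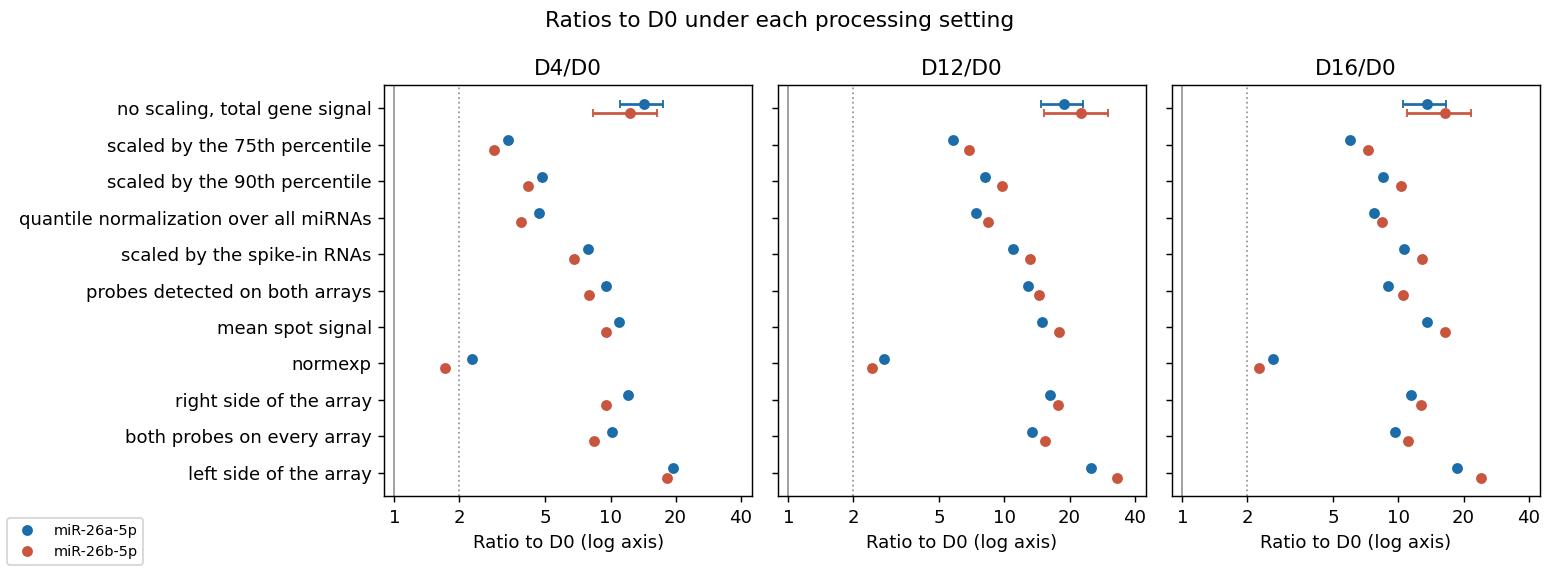
Ratio of D4, D12 and D16 to D0 (horizontal, log axis) for miR-26a-5p and miR-26b-5p under the setting used in the text (top line, with bars of 1 technical error) and under 10 others. Solid and dotted vertical lines mark ratios of 1 and 2; scaling and normexp lower the ratios, the left side of the array raises them, and 1 of the 60 recomputed ratios, of miR-26b-5p at D4, falls below 2.

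Between D4 and D12, where both members were well measured, the signal of miR-26b-5p increased by more than that of miR-26a-5p. The D12/D4 ratio was 1.33 ± 0.147 for miR-26a-5p and 1.83 ± 0.216 for miR-26b-5p, beside an array median of 0.865. The difference between D12 and D4 came to 2.52 times its technical error for miR-26a-5p and 4.95 times for miR-26b-5p. Unscaled, neither ratio passed 2, as 4.81% of 374 miRNAs did, and the members ranked 45 and 23. Scaling changed this for miR-26b-5p. Its ratio was 2.37 (75th percentile) and 2.33 (90th), where 9.09% of miRNAs passed 2 in either case. Quantile normalization gave miR-26b-5p 2.18, beside 11.2% of miRNAs above 2. Against the spike-in RNAs it stayed below, at 1.94, beside 5.35%. The ratio of miR-26a-5p remained under 2 throughout, from 1.40 to 1.72. The change of miR-26b-5p was 1.38 times that of miR-26a-5p. With the errors of the software this factor has an error of 0.224, so that 1 lies within 2 errors, and with the standard error of mean spot signals it has one of 0.0374. All 4 pairings of a miR-26b-5p probe with a miR-26a-5p probe gave more than 1, from 1.34 to 1.46. The factor was 1.36 for spots on the right side of the arrays, 1.40 for those on the left, 1.39 after quantile normalization and 1.18 with normexp. Scaling an array by 1 factor leaves it as it is. These errors cover spots of 1 array per day, and how the factor varies between cultures was not measured. In the comparisons with D0 the factor was 0.865 ± 0.345 (D4), 1.19 ± 0.473 (D12) and 1.21 ± 0.478 (D16), in each case within 1 error of 1 by the errors of the software. By mean spot signals of both probes it was 0.825 ± 0.0779, 1.14 ± 0.107 and 1.15 ± 0.108 in the same order, with standard errors over spots, or more than 1 error from 1 on each day, below it at D4 and above it later.

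Signals of both members were lower at D16 than at D12 to about the same degree, as were those of most of the array. The D16/D12 ratio was 0.715 ± 0.0781 for miR-26a-5p and 0.723 ± 0.0800 for miR-26b-5p, 3.00 and 2.88 times the error of the difference. The array median was 0.703, 0% of 371 miRNAs were above 2, and the members ranked 163 and 154. The change of miR-26b-5p was 1.01 ± 0.157 times that of miR-26a-5p. The effective spot size that enters each total was 0.760 at D12 as estimated by the software and 0.6, its default, at D16. By mean spot signals, which leave this factor out, the D16/D12 ratio was 0.906 for miR-26a-5p and 0.915 for miR-26b-5p. After division by the 75th percentile it was 1.04 and 1.05, and against the spike-in RNAs 0.967 and 0.978. Relative to the rest of the array, D12 and D16 differed by less than the technical error for both members.

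**Figure D4:**
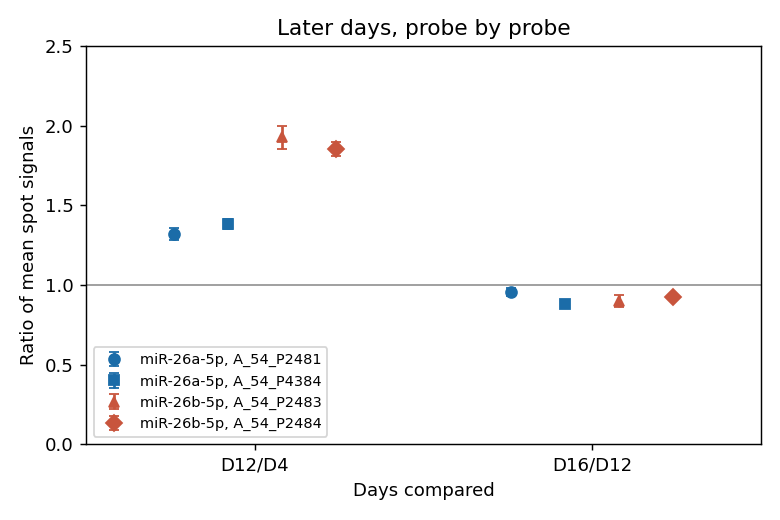
Ratio of mean spot signals between later days for each of the 4 miR-26 probes, with bars of 1 standard error over spots (14 or 15 spots a day) and a line at 1. Both miR-26b-5p probes lie above both miR-26a-5p probes at D12/D4, and all 4 lie between 0.88 and 0.96 at D16/D12.

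The probes of each member behaved alike on the later days. Within miR-26a-5p the signal of A_54_P2481 was 0.494 (D4), 0.472 (D12) and 0.513 (D16) of that of A_54_P4384, beside 0.407 at D0. Within miR-26b-5p the signal of A_54_P2483 was 0.550 (D4), 0.572 (D12) and 0.557 (D16) of that of A_54_P2484, beside 0.475 at D0. Spots of a probe varied by 4.2% to 13.4% (coefficient of variation) on the later days and by 25.5% to 39.9% at D0. The probe sequences were not in the files used here, so how far a probe for one member also binds the other was not tested.

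The miRNAs whose time course was most like that of miR-26 were found among the other 282 detected on all 4 arrays, by Euclidean distance between the log2 ratios to D0 at D4, D12 and D16. For miR-26a-5p they were miR-103-3p at a distance of 0.237, let-7c-5p at 0.408, miR-26b-5p at 0.428, miR-106b-5p at 0.442 and miR-107-3p at 0.634. For miR-26b-5p they were miR-26a-5p at 0.428, miR-106b-5p at 0.526, let-7c-5p at 0.587, miR-103-3p at 0.629 and miR-322-5p at 0.635. The members thus stood at places 3 and 1 of each other's list, and 3 further miRNAs were on both lists. Dividing an array by 1 factor leaves these distances as they are. The likeness rests on 3 ratios that share the D0 array, and for dim miRNAs it moves with the error of their D0 signal.

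**Figure D5:**
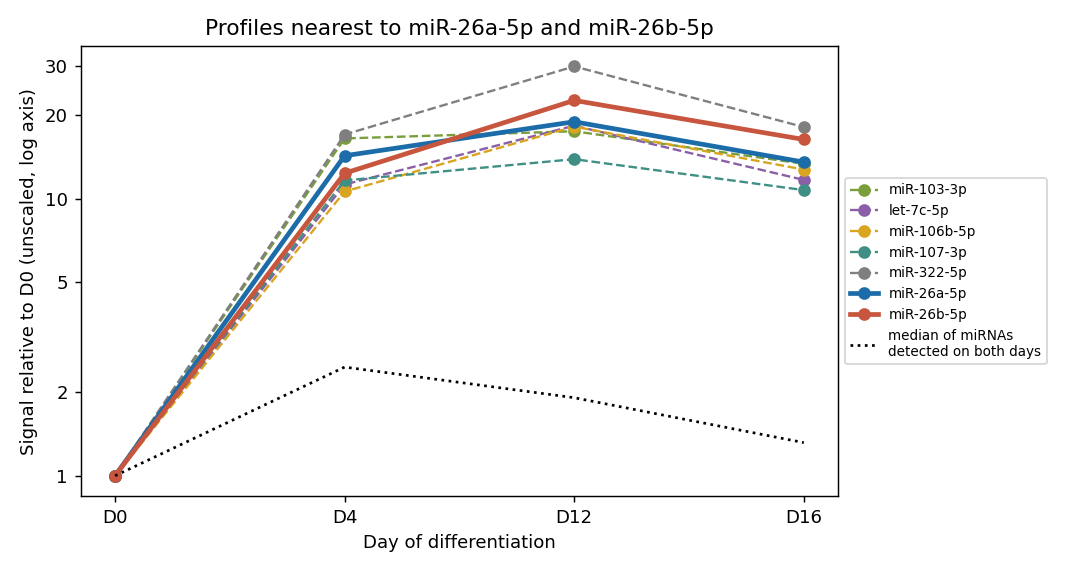
Signal relative to D0 (log axis, unscaled) by day for the members (solid lines) and the miRNAs nearest to them in profile (dashed). The dotted line is the median over miRNAs detected on both days; the members and their neighbours lie between 10.6 and 30.0 on the later days, and the median lies between 1.32 and 2.47.

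The D12/D0 ratios of miR-26, 18.9 and 22.6, were set beside lists of other miRNAs of fat cell differentiation, none of which includes miR-26. Both values lay above those of the few miRNAs of a rising list that could be measured at D0, but not clear of the highest of them. Of 12 guide strands described as rising in adipogenesis, 3 were detected at D0 and 11 at D12, beside 329 and 406 of the 1881 miRNAs on the array. The 3 with a D12/D0 ratio were all above 2, with a median of 16.6, beside 47.8% above 2 and a median of 1.91 over all miRNAs. The highest was miR-103-3p, 17.5, and the lowest miR-107-3p, 13.9, both regulators of insulin sensitivity. The gap between miR-103-3p and each member was smaller than the technical error of that member, 4.20 for miR-26a-5p and 7.40 for miR-26b-5p. At D4/D0 miR-103-3p, at 16.5, stood above both members, at 14.3 and 12.3. miR-378a-5p, from an intron of the mitochondrial coactivator gene Ppargc1b, was not detected on any day. Of 10 described as falling or as restraining adipogenesis, 3 were detected at D0 and 6 at D12, and the 3 with a ratio were also all above 2, with a median of 3.83. The highest of these was miR-130a-3p, which targets Pparg, at 9.30, and the lowest miR-27a-3p at 3.44. miR-130b-3p and miR-138-5p of that list were not detected on any day. After division by the 75th percentile, applied to the lists after seeing the data, 1 of these 3 stayed above 2, with miR-27a-3p at 1.05 and miR-221-3p at 1.16, while all 3 of the rising list did, from 4.22 to 5.32. Of the 9 let-7 guides 8 were detected at D0, all but miR-98-5p, and the 8 were above 2 with a median of 8.22, from 4.57 for let-7e-5p to 18.3 for let-7c-5p. Scaled in the same way 6 of the 8 were above 2, with let-7e-5p at 1.39 and let-7b-5p at 1.61. Of the 5 miR-30 guides only miR-30d-5p was detected at D0, with a ratio of 8.50. For D12/D4 the medians were 1.23 for the rising list, 0.722 for the falling list, 1.24 for let-7, 1.13 for miR-103-3p and miR-107-3p and 1.01 for miR-30. Both miR-26 members, at 1.33 and 1.83, lay above each of these medians, but single miRNAs of the lists spread widely. The range was 0.263 to 1.64 for the rising list, 0.238 to 1.69 for the falling list, 0.751 to 1.71 for let-7 and 0.573 to 1.38 for miR-30. The ranges cover only miRNAs detected on both days, 9 of 12 of the rising list and 6 of 10 of the falling list. Among these, each range reached above miR-26a-5p, and none reached miR-26b-5p. In the rising list miR-148a-3p and miR-378a-3p had no ratio. Both were undetected at D4 and came to 25.7 ± 2.46 and 10.4 ± 1.72 at D12, so a larger increase than that of miR-26b-5p is possible for them.

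Some of the miRNAs typical of other sources were brighter on the later days, as were 62.1% of all miRNAs by more than 2-fold at D4. Between D4 and D12, however, only 4.81% of 374 miRNAs were above 2 without scaling. All 3 red blood cell miRNAs were, from 4.07 to 5.42, and so were miR-223-3p (4.12) and miR-126a-3p (4.04). Of 3 red blood cell miRNAs on the array (miR-486b-5p is not on it), 1 was detected at D0 and 3 on each later day. Their summed signal was 9.40 on D0 and 468, 2524 and 1649 on the later days, of which miR-451a alone gave 9.40, 443, 2400 and 1559. Of 6 miRNAs of leukocytes, endothelium and liver, 0, 2, 5 and 5 were detected in the order of the days, with sums of 0, 30.2, 146 and 123, and miR-150-5p on no day. Over the whole array 329, 426, 406 and 380 of 1881 miRNAs were detected in the order of the days, and 467 on at least 1 day. Like most of the array, the 4 miRNAs of striated muscle, among them miR-206-3p, were not detected on any day. The part of such sources in the miR-26 signal was not tested.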

How the data were processed

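RNA of 1 exosome pool per day (D0, D4, D12, D16) was read on a mouse miRNA array. The authors deposited the output of Agilent Feature Extraction 11.0.1.1 (11.0 in the submitters' processing notes) as intensity values. Local background had been subtracted from each spot and no scaling between arrays applied. The deposited total gene signal sums the probes above 3 times their error, and 0.1 stands for no detection. A probe's total is its mean spot signal times spot number, effective spot size and a constant, as checked on the files.

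Ratios of these signals, with their relative technical errors combined in quadrature, were calculated in Python 3.11.15 (pandas 2.3.3, numpy 2.4.6). A ratio counted as raised above 2 and as lowered below 0.5. Medians, ranks and shares cover miRNAs detected on both days. Steps were tested on simulated data. With 1 array per day no test was made. Alternatives were division by an upper percentile (75th, 90th) or by spike-in RNAs, quantile normalization, probes detected on both arrays, mean spot signals, 1 side of the array, and normexp (offset 50, limma 3.58.1, R 4.3.3) on the median spot signals.

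Named miRNAs were the members, their passengers, sequences sharing the seed or within 6 edits, the 5 nearest profiles of each member, list members with the highest or lowest D12/D0 ratio or without detection, and, named after their values were seen, those that exceeded both members. miR-148a-3p and miR-378a-3p were also named after their values were seen. The members and lists were chosen with earlier results of these data known. Sequences and coordinates come from RefSeq tables (GRCm38.p6). Coordinates in the array files, on another build, were not used.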

Additional observations from a re-analysis of the deposited data

How the results depend on the processing

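All 60 recomputed ratios of miR-26a-5p and miR-26b-5p to D0 stayed above 1. Of them 16 lay within the technical error of the value in the text and 44 did not, and the latter follow in the order D4, D12, D16, first for miR-26a-5p and then for miR-26b-5p. Scaling by the 75th percentile gave 3.35, 5.75 and 5.98, then 2.90, 6.87 and 7.22. Scaling by the 90th percentile gave 4.82, 8.16 and 8.48, then 4.17, 9.74 and 10.2. Quantile normalization gave 4.67, 7.35 and 7.67, then 3.86, 8.42 and 8.39. Scaling by the spike-in RNAs gave 7.83 and 10.99 at D4 and D12, then 6.77 and 13.1. Probes detected on both arrays gave 9.55, 12.9 and 8.95, then 7.96, 14.4 and 10.5. Mean spot signals gave 10.98 at D4 for miR-26a-5p. Normexp gave 2.30, 2.78 and 2.64, then 1.71, 2.43 and 2.27. Of the settings chosen after seeing the data, both probes on every array gave 10.1, 13.5 and 9.62 for miR-26a-5p, and the left side of the array gave 19.4, 25.1 and 18.6, then 18.3, 33.2 and 24.1.

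The share of miRNAs above 2 fell from 62.1% at D4 to 6.62%, 14.5%, 11.7% and 29.0% with the 75th percentile, the 90th percentile, quantiles and spike-in RNAs. It fell from 47.8% at D12 to 10.1%, 14.5%, 12.8% and 24.2%, and from 31.1% at D16 to 11.4%, 14.5% and 13.8% with the first 3. The split of calls turned with it: at D12 the share below 0.5 was 3.37% unscaled and 38.4% with the 75th percentile, whose median ratio was 0.581. Among ranks at D12, under settings chosen after seeing the data, miR-26a-5p moved from 5 to 8 with probes detected on both arrays and to 13 with normexp, and miR-26b-5p from 4 to 19 with normexp. At D4 they moved further, miR-26a-5p from 5 to 44 with normexp and miR-26b-5p from 6 to 14 with both probes, to 16 with probes detected on both arrays and to 76 with normexp. When at least 50% of a probe's spots had to be well above background, miR-26b-5p was no longer detected at D0. The cause of these shifts was not tested beyond what the settings do by construction.

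No paired analysis was possible because each day has 1 array. Signal over background limits the D0 values most: the technical error was 20.8% of the D0 signal for miR-26a-5p and 31.8% for miR-26b-5p, against 7.71% to 8.91% on later days. If miR-26b-5p were taken as not detected at D0, D12 would be 12.1-fold above a detection limit of 3 errors summed over its probes.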
